A study of Mus musculus with 8 samples.

Results

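The 10 genes described here encode neuronal calcium sensors, a calcium buffer and partners of calmodulin: Hpca, Hpcal1, Hpcal4, Ncald, Calb1, Pcp4, Nrgn, Ppp3ca, Camkk2 and Camk4. They were taken by name, as every non-control probe whose gene symbol on the array was one of these, which gave 18 probes of the 55681 non-control probes and 10 of the 24965 named genes. The genes, and the further lists below, were chosen with earlier results of these data known. Counts of them set beside all tested probes or genes are therefore descriptions and not tests of enrichment. Signal was measured on 1-colour microarrays, 1 array per sample, in 4 R6/2 and 4 wild-type (WT) samples of striatum from male mice 4 weeks of age. R6/2 mice carry, as a transgene, the first exon of human huntingtin with an expanded CAG repeat under the human huntingtin promoter, and are used as a model of Huntington's disease. The WT mice, called controls by the labels, carry no stated transgene, and no treatment is stated for either genotype. The labels number the samples as replicates without saying that each came from its own mouse, so the p-values reflect only how far these samples spread, and that spread may in part be technical.

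Neurons turn calcium entry into enzyme activity through small proteins with EF-hand calcium-binding sites. Calmodulin is the most general of them. When loaded with calcium it switches on the phosphatase calcineurin and the calmodulin-dependent kinases, while short IQ-motif proteins such as neurogranin and Pcp4 hold calmodulin and tune how readily it is released. Hippocalcin and its relatives are a separate family of EF-hand proteins that carry a fatty acyl anchor and move to membranes when calcium rises. Striatal projection neurons, the main output cells of the striatum, are rich in several of these proteins.

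All values are processed signals on a log2 scale, given relative to the 75th percentile of the same array, so that 0 is that percentile. Differences are R6/2 minus WT on this log2 scale. Called means that limma gave an adjusted p under 0.05, with the Benjamini-Hochberg adjustment taken over the 35121 probes that exceeded background clearly on 4 or more of the 8 arrays. All 18 member probes were well above background on all 8 arrays, and none was saturated. Levels of different probes are not compared, because brightness depends on the probe.

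On the called probes of the hippocalcin, neurogranin, Camkk2 and Camk4 genes signal was lower in R6/2 striatum, with differences between -0.66 and -0.43. Hpca probe 1 and Camk4 probe 2 were not called. Of the 18 member probes, 6 were called, all 6 lower in R6/2. Among all tested probes, 1.51% were called in either direction, 1.14% lower and 0.367% higher. Of the tested probes' calls, 75.6% were lower, but 64.4% with quantile normalization and 46.2% when arrays were scaled on pan-neuronal genes. The median difference over the member probes was -0.40, beside 0.01 over all tested probes, and 17 of the 18 were negative, beside 48.1% of all tested probes. On 9 member probes every R6/2 array lay below every WT array, beside 6.18% of all tested probes, and on 0 member probes did every R6/2 array lie above every WT array, beside 6.19%. At an unadjusted p under 0.05, 10 member probes were lower and 0 higher, beside 9.2% lower, 7.82% higher and 17% in all among tested probes.

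The count of calls changed with the arrays and the design. The replicate number was fitted as a block. It was taken to pair the samples, but it was also the row on the slide. The sample names carry the same number in both genotypes for the first 3 replicates, but different numbers for replicate 4. With this block 1 member probe, that of Nrgn, was called. At an unadjusted limma p under 0.05, 13 member probes were lower and 0 higher, against 10 and 0 without the block. Leaving out R6/2 replicates 1, 2, 3 and 4 in turn left 2, 1, 0 and 1 member probes called, and leaving out WT replicates 1, 2, 3 and 4 left 2, 0, 6 and 0. Between 10 and 13 member probes were lower at an unadjusted limma p under 0.05 in each of these 8 sets of arrays, and 0 were higher. The shares of all tested probes at this unadjusted threshold, given above, are for the fit without the block on all 8 arrays. They are not given for the other settings, so changes in these member counts are not read as particular to the members. In the authors' deposited table, which holds an unpaired test of every probe, 0 of the 18 member probes had an adjusted p under 0.05, with Nrgn lowest at 0.0539, beside 144 probes in the whole table.

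**Figure D1:**
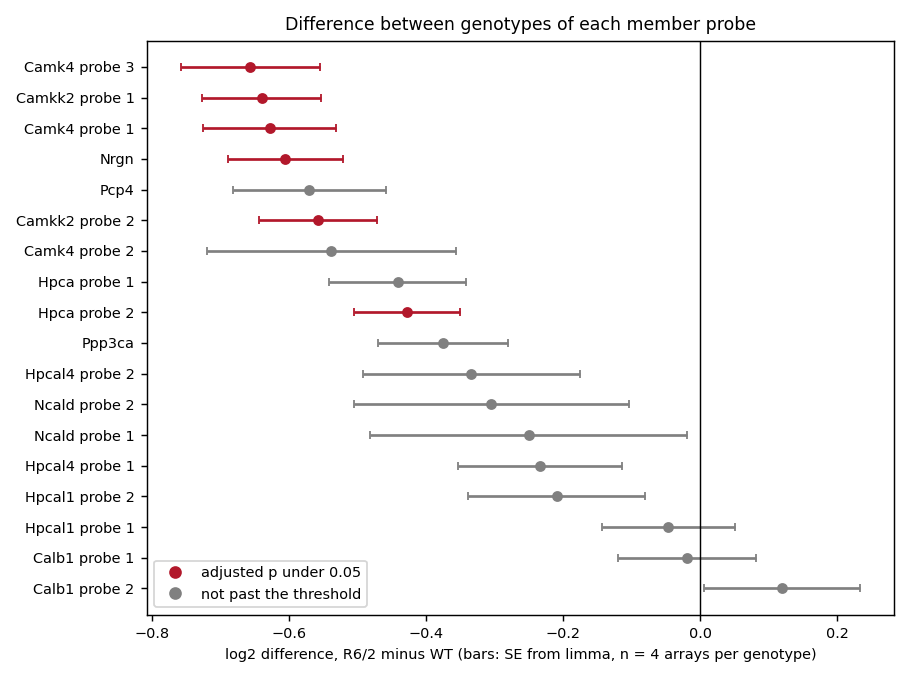
Difference between genotypes (R6/2 minus WT, log2 scale, horizontal axis) for each of the 18 member probes, with bars of 1 SE from limma over 4 arrays per genotype. The 6 called probes (red) lie between -0.66 and -0.43, and Calb1 probe 2, at 0.12, is the one point above 0.

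Of Hpca, Hpcal1, Hpcal4 and Ncald, Hpca was the gene with a called probe. Hpca encodes hippocalcin, which responds to calcium at membranes and is needed for a slow potassium current in neurons. Hpca probe 2 (A_55_P2161595, chromosome 4, 128788820 to 128788879, minus strand, mm9) read 8.06, 8.12, 8.04 and 7.86 in R6/2 replicates 1 to 4, against 8.41, 8.53, 8.43 and 8.41 in WT replicates 1 to 4. All 4 R6/2 arrays were below all 4 WT arrays, and R6/2 replicate 4 was the lowest. The mean was 8.02 ± 0.11 in R6/2 and 8.45 ± 0.06 in WT (SD, n = 4 each), a difference of -0.43 ± 0.08 (SE, adjusted p = 0.0442), so that the signal fell by 25.6%. Its adjusted p was 0.0600 with the replicate block and between 0.0624 and 0.120 when 1 array was left out.

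Hpca probe 1 (A_55_P2088905, 128789510 to 128789569 on the same strand) lies 690 bases from probe 2. It read 3.65, 3.73, 3.63 and 3.41 in R6/2, against 3.92, 4.24, 4.03 and 4.00 in WT. The 2 genotypes did not overlap here either, and the difference of -0.44 ± 0.10 was close to that of probe 2, but it was not past the threshold (adjusted p = 0.0742).

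None of the 6 probes of hippocalcin's relatives was called. Hpcal1 encodes a close relative of hippocalcin with a wider tissue range. Its probe 1 (A_51_P487360, chromosome 12, 17798407 to 17798466, plus strand, mm9) read 2.17, 2.19, 1.99 and 2.05 in R6/2 and 2.20, 2.15, 1.93 and 2.31 in WT, a difference of -0.05 ± 0.10 (adjusted p = 0.848). The genotypes overlapped on this probe, and its difference turned to 0.035 when arrays were scaled on pan-neuronal genes and to 0.0084 without WT replicate 4. Hpcal1 probe 2 (A_52_P536735) lies 5094 bases away, and its 60 bases span 1057 positions of chromosome 12 (17793313 to 17794369). It read -0.93, -1.12, -1.08 and -0.88 in R6/2, against -0.73, -0.88, -1.07 and -0.49 in WT (-0.21 ± 0.13, adjusted p = 0.459), with overlapping genotypes.

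Hpcal4, a further brain relative of hippocalcin, was measured by 2 probes 2481 bases apart on chromosome 4 (A_51_P388819 at 122871074 to 122871133 and A_55_P2087681 at 122868593 to 122868652, plus strand, mm9). Probe 1 read 2.46, 2.69, 2.28 and 2.74 in R6/2, against 2.62, 2.87, 2.89 and 2.72 in WT (-0.23 ± 0.12, adjusted p = 0.371). Probe 2 read 1.74, 1.98, 1.55 and 2.19 in R6/2, against 1.92, 2.31, 2.39 and 2.18 in WT (-0.33 ± 0.16, adjusted p = 0.333). On both probes R6/2 replicate 3 was the lowest of the 8 arrays and R6/2 replicate 4 lay among the WT arrays.

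Ncald encodes neurocalcin delta, a sensor of the same family. Its 2 probes lie 31058 bases apart on chromosome 15 (A_52_P597371 at 37327015 to 37327074 and A_66_P118863 at 37295957 to 37296016, minus strand, mm9). Probe 1 read -1.05, -0.37, -0.95 and -0.23 in R6/2, against -0.61, -0.03, -0.73 and -0.24 in WT (-0.25 ± 0.23, adjusted p = 0.634). Probe 2 read 0.70, 1.28, 0.65 and 1.43 in R6/2, against 1.04, 1.5, 1.28 and 1.46 in WT (-0.31 ± 0.20, adjusted p = 0.489). Replicates 1 and 3 were the low ones in both genotypes on both probes, and the range within each genotype was wider than the difference between the means.

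Whether the relatives differed unequally between genotypes was tested on the per-array difference between Hpca and each relative, 3 comparisons in all, with each gene's brightest probe. Hpca minus Hpcal1 averaged 5.92 ± 0.10 in R6/2 and 6.30 ± 0.18 in WT (SD, n = 4 each), a change of -0.38, and all 4 R6/2 arrays lay below all 4 WT arrays. The two-sided exact permutation p was 0.0286, the smallest that 4 arrays against 4 allow, and 0.0857 after Benjamini-Hochberg adjustment over the 3 comparisons. Hpca minus Hpcal4 changed by -0.19 (exact permutation p = 0.257, adjusted 0.386) and Hpca minus Ncald by -0.12 (exact permutation p = 0.714, adjusted 0.714). Without R6/2 replicate 4 the sign of Hpca minus Ncald turned, to 0.068. No difference between relatives passed the threshold, but a lone comparison at the smallest p could not have passed it after adjustment over 3. Taken as same-numbered pairs, Hpca minus Hpcal1 changed by -0.32, -0.46, -0.46 and -0.29 in replicates 1 to 4, all of 1 sign (two-sided exact sign-flip p = 0.125, the smallest that 4 pairs allow). Hpca minus Hpcal4 and Hpca minus Ncald each had 3 negative pairs and 1 positive, that of replicate 3.

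The probes of these relatives differ from each other in sequence, but they were compared with one another and not with the relatives' transcripts. Over the 24 pairs of probes from different genes among Hpca, Hpcal1, Hpcal4 and Ncald, the longest shared run was 8 bases, and over the 144 pairs of probes from different member genes it was 10 bases. An Hpcal1 and an Ncald probe are shown whole, and 30 bases each of the brighter Hpca and Ncald probes with the hexamer AATAAA, the common polyadenylation signal, in capitals. The hexamer was found in 4 of the 18 member probes, read on the probe strand, and in 10.1% of the 55681 non-control probes, all of 60 bases.
Hpcal1 probe 2: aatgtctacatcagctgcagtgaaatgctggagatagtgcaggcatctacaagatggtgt
Ncald probe 1: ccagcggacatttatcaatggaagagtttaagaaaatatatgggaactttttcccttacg
Hpca probe 2, part: taataacttcaaAATAAAgtcttgtttcag
Ncald probe 2, part: gagattttccttAATAAActgcccctagca
Both parts hold the hexamer, and of these probes that of Hpca was called and that of Ncald was not.

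Neither probe of Calb1 was called. The gene encodes calbindin, an EF-hand protein that buffers calcium and marks the matrix compartment of the striatum. Calb1 probe 2 (A_66_P102374, chromosome 4, 15835078 to 15835137, plus strand, mm9) read 2.33, 1.92, 2.02 and 2.06 in R6/2, against 2.08, 2.03, 1.74 and 2.00 in WT (0.12 ± 0.11, adjusted p = 0.644). Probe 1 (A_55_P2181602, 15833582 to 15833641), 1496 bases away, read -0.77, -1.10, -1.05 and -0.96 in R6/2, against -0.93, -0.82, -1.13 and -0.92 in WT (-0.02 ± 0.10, adjusted p = 0.942). The genotypes overlapped on both probes, and the sign of probe 1 changed with the scaling. A p that misses the threshold does not show that the level was equal, and the SE of about 0.1 limits what these arrays could detect.

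Of the 2 small IQ-motif proteins that bind calmodulin, Nrgn was called and Pcp4 was not. Nrgn encodes neurogranin, a postsynaptic protein that binds calmodulin when calcium is low. Its probe (A_55_P2172470, chromosome 9, 37352694 to 37352753, minus strand, mm9) read 4.52, 4.57, 4.43 and 4.25 in R6/2, against 5.05, 5.10, 5.01 and 5.03 in WT. The WT arrays lay close together, and every R6/2 array lay below them. The mean was 4.44 ± 0.14 in R6/2 and 5.05 ± 0.04 in WT, a difference of -0.61 ± 0.08 (adjusted p = 0.0219), so that the signal fell by 34.3%. Nrgn was the member called under the replicate block (adjusted p = 0.0496), and it was called in 4 of the 8 sets that left out 1 array.

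Pcp4 encodes a small calmodulin-binding protein, also called PEP-19, that speeds the exchange of calcium by calmodulin. Its probe (A_51_P253984, chromosome 16, 96747241 to 96747300, plus strand, mm9) read 7.16, 7.15, 7.04 and 6.88 in R6/2, against 7.76, 7.72, 7.36 and 7.68 in WT. The genotypes did not overlap, although WT replicate 3 lay apart from the other WT arrays on the low side. The difference of -0.57 ± 0.11 just missed the threshold (adjusted p = 0.0532). Without WT replicate 3 the difference was past the threshold (adjusted p = 0.0289). This was the 1 set of the 8 that left out 1 array in which Pcp4 was called. In the other sets its adjusted p was 0.0929 to 0.141, and with the replicate block 0.0687. Over all 18 alternatives it was called in 5.

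Ppp3ca encodes the alpha catalytic subunit of calcineurin, the phosphatase that calcium and calmodulin switch on. Its probe (A_55_P1952738, chromosome 3, 136598682 to 136598741, plus strand, mm9) read 7.03, 7.02, 6.85 and 6.87 in R6/2, against 7.35, 7.48, 7.12 and 7.33 in WT. All R6/2 arrays were below all WT arrays, with replicate 3 the lowest of both genotypes, and the difference of -0.38 ± 0.09 was not past the threshold (adjusted p = 0.0957).

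The kinase pair Camkk2 and Camk4 held 4 of the 6 calls. Camkk2 encodes a calmodulin-dependent kinase kinase, which phosphorylates and activates Camk4, Camk1 and the energy sensor AMPK. Its probe 1 (A_55_P2125684, chromosome 5, 123187482 to 123187541, minus strand, mm9) had the smallest p of the 18 member probes and the rank of 126 among all tested probes. It read 1.17, 1.21, 1.14 and 1.03 in R6/2, against 1.62, 1.76, 1.95 and 1.77 in WT. The mean was 1.14 ± 0.08 in R6/2 and 1.78 ± 0.14 in WT, a difference of -0.64 ± 0.09 (adjusted p = 0.0204), so that the signal fell by 35.8%. The genotypes were well apart on this probe, the lowest WT array being replicate 1. The sequence of this probe is given because it carries the smallest p, and it has no capitals because it does not hold AATAAA.
Camkk2 probe 1: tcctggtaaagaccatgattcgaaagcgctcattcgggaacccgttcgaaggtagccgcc

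Camkk2 probe 2 (A_55_P2329923, 123183273 to 123183332), 4209 bases away, read 5.64, 5.67, 5.63 and 5.45 in R6/2, against 6.03, 6.25, 6.26 and 6.09 in WT. It was called as well, with a difference of -0.56 ± 0.09 (adjusted p = 0.0288) and no overlap between genotypes. With the replicate block the adjusted p was 0.0576 for probe 1 and 0.0538 for probe 2, and neither was called. Probe 1 was called in 2 and probe 2 in 1 of the 8 sets that left out 1 array.

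Camk4 encodes calmodulin-dependent kinase IV, a largely nuclear kinase that phosphorylates transcription factors such as CREB. Its 3 probes lie on chromosome 18 (plus strand, mm9). Probe 1 (A_55_P2096324, 33099131 to 33099190) starts 246572 bases before probe 3 (A_66_P108791, 33345703 to 33345763), which starts 9659 bases before probe 2 (A_55_P2097206, 33355362 to 33355421). Probe 1 read 0.26, 0.25, 0.18 and 0.07 in R6/2, against 0.63, 1.03, 0.79 and 0.83 in WT (-0.63 ± 0.10, adjusted p = 0.0288). Probe 3 read 1.28, 1.03, 0.97 and 0.92 in R6/2, against 1.74, 1.79, 1.54 and 1.76 in WT (-0.66 ± 0.10, adjusted p = 0.0288). On both of these probes all R6/2 arrays were below all WT arrays. The signal of WT over R6/2 was 1.55-fold on probe 1 and 1.58-fold on probe 3.

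Camk4 probe 2, the brightest of the 3, read 4.39, 4.28, 4.04 and 3.56 in R6/2, against 4.66, 4.38, 4.60 and 4.78 in WT. Here R6/2 replicate 1 lay just above the lowest WT array, and R6/2 replicate 4 lay below the other R6/2 arrays. The difference of -0.54 ± 0.18 had the same direction and a larger error, and was not called (adjusted p = 0.187). With the replicate block the adjusted p was 0.0605 for probe 1 and 0.0573 for probe 3, so that neither call held, and each of them was called in 2 of the 8 sets that left out 1 array.

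**Figure D2:**
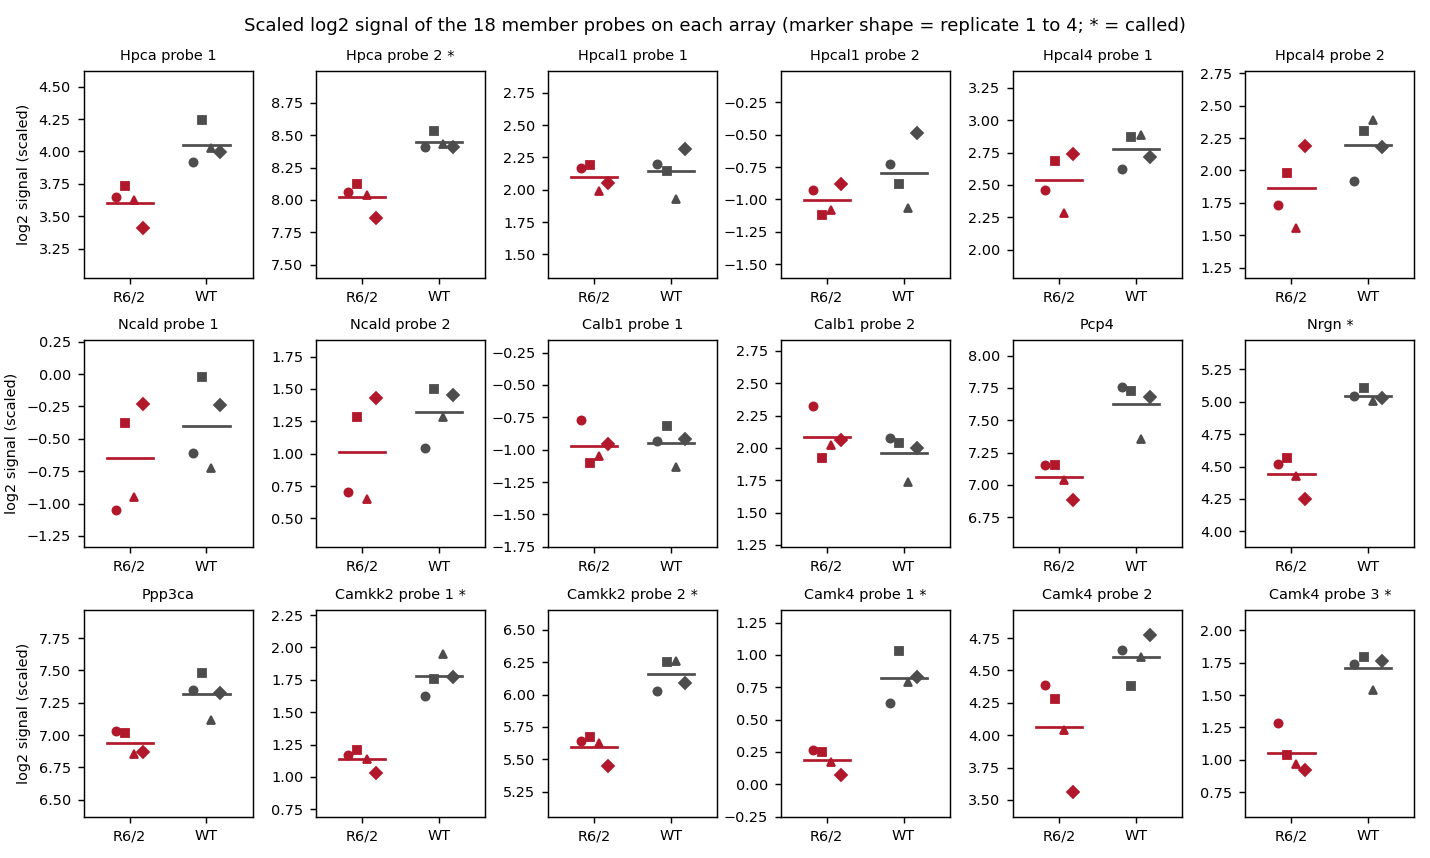
Scaled log2 signal (vertical axes, 0 being the array's 75th percentile) of the 18 member probes on each R6/2 array (red, left) and WT array (grey, right); circle, square, triangle and diamond are replicates 1, 2, 3 and 4, lines are means of 4 arrays and a star marks a called probe. On 9 probes the 2 genotypes do not overlap, and on Camk4 probe 2 and the probes of Calb1, Ncald, Hpcal1 and Hpcal4 they do.

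The arrays of the same number can also be set side by side. On 12 of the 18 member probes, R6/2 was below WT in all 4 same-numbered pairs. The share of all tested probes with this pattern is not given here, so the count is not read as a trait of the members. R6/2 replicate 4 was the lowest R6/2 array on all 6 called probes, and on 8 of the 9 probes whose genotypes did not overlap, Ppp3ca being the exception. How often this array was the lowest among all called or non-overlapping probes is not given here. Without that array 1 member probe was called, while 13 were lower at an unadjusted limma p under 0.05. Replicate number was also the row on the slide, and all WT arrays lay in the first column and all R6/2 arrays in the second column of 1 slide scanned once, so slide column and genotype cannot be told apart.

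The promoters of members were inspected for short motifs because several members were low together. Windows of 250 bases before the gene's start were taken from RefSeq (GRCm38.p6) for 6 of the 10 genes, 8 windows in all, and these cover 3 of the 4 called genes, the window of Camk4 not being used here. The motifs searched, on both strands, were TGACG and the palindrome TGACGTCA that contains it (the CREB site), the CCAAT box, the GC box (GGGCGG) and TATAAA. Among 32851 RefSeq windows of this length, TGACG was in 17.8%, TGACGTCA in 1.55%, CCAAT in 33.8%, GGGCGG in 32.7% and TATAAA in 12.4%. None of the 8 member windows held TGACG, TGACGTCA or TATAAA in these letters. The windows of the called genes Nrgn, Camkk2 and Hpca (of its 3 windows, the one with the most CG pairs) and of the uncalled Hpcal1 are shown with CCAAT and GGGCGG, or their reverse complements, in capitals.
Nrgn promoter, chr9:37552746-37552995, minus strand: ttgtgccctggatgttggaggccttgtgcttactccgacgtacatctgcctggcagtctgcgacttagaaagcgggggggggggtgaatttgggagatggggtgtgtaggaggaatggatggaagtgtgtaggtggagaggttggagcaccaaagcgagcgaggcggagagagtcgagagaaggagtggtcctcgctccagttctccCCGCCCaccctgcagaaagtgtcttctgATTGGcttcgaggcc
Camkk2 promoter, chr5:122779411-122779660, minus strand: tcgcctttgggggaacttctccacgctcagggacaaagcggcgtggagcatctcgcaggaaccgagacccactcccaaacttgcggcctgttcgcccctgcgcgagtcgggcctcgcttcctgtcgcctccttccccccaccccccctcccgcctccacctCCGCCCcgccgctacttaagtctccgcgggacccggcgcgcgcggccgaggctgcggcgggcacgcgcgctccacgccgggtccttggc
Hpca promoter, chr4:129121304-129121553, minus strand: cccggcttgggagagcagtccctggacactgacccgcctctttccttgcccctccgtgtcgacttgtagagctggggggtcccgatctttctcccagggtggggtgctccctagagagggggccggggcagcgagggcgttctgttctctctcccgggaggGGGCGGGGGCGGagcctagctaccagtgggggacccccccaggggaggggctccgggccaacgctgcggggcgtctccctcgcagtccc
Hpcal1 promoter, chr12:17690559-17690808, plus strand: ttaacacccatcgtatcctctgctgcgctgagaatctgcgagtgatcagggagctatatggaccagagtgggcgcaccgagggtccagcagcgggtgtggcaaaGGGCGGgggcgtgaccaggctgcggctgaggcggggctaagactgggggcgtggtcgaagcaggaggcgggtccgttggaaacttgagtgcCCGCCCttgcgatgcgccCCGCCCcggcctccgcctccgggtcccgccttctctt
The Nrgn window held 1 CCAAT and 1 GGGCGG, the Camkk2 window 1 GGGCGG, the Hpca window 2 and the Hpcal1 window 3. The Hpcal4 window held 1 CCAAT and 2 GGGCGG, and the Pcp4 window none of the motifs. GGGCGG was therefore in windows of both called and uncalled genes.

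The other calcium and calmodulin genes that were called were also lower in R6/2. Of a list of 53 further genes, 52 were tested, each on its brightest tested probe; Scgn was not tested, being too dim. Among these 52 genes, 4 were called, all lower in R6/2, beside 1.92% of the 17975 tested genes called in either direction, 1.46% lower and 0.462% higher. At an unadjusted p under 0.05, 21 were lower and 0 higher, beside 9.98% lower, 8.95% higher and 18.9% in all among tested genes. The median difference of the list was -0.18, beside 0.02 over all tested genes, and 17 of the 52 had every R6/2 array below every WT array and 0 had every R6/2 array above, beside 6.76% and 7.58% of all tested genes.

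Of the 15 other EF-hand sensors and buffers, 3 were called. Kcnip2, whose protein is a hippocalcin-like subunit of A-type potassium channels, read 0.70, 0.67, 0.70 and 0.59 in R6/2, against 1.22, 1.42, 1.22 and 1.26 in WT (-0.61 ± 0.07, adjusted p = 0.0127). It was also called with the replicate block (adjusted p = 0.0482) and in 6 of the 8 sets that left out 1 array. Cabp1, a neuronal calmodulin-like protein, read 1.13, 1.24, 1.12 and 1.03 in R6/2, against 1.62, 1.64, 1.70 and 1.56 in WT (-0.50 ± 0.07, adjusted p = 0.0227), while its second probe was not called (-0.22 ± 0.13, adjusted p = 0.419). Necab3, an EF-hand protein of neurons, read 1.16, 1.34, 0.99 and 1.64 in R6/2, against 1.97, 2.09, 2.15 and 2.25 in WT (-0.83 ± 0.14, adjusted p = 0.0371). The genotypes were apart on all 3 genes. Its relative Necab1 differed by -0.57 ± 0.12 (adjusted p = 0.0584) and Caln1, a calmodulin-like protein of the secretory pathway, by -0.34 ± 0.08 (adjusted p = 0.0778).

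Of the 12 calmodulin-dependent kinases and their inhibitors, 1 was called. Camk2n1, which encodes an inhibitor protein of calmodulin-dependent kinase II, read 5.19, 4.72, 4.55 and 4.40 in R6/2, against 5.71, 5.79, 5.66 and 5.60 in WT (-0.97 ± 0.16, adjusted p = 0.0329). Its R6/2 arrays were spread more widely than its WT arrays, and all lay below them. With the replicate block Cabp1 (adjusted p = 0.0508), Necab3 (0.0569) and Camk2n1 (0.0583) were no longer called. Camk2a, the alpha subunit of kinase II, differed by -0.38 ± 0.09 (adjusted p = 0.0897), and Camkk1, the other kinase kinase, by -0.36 ± 0.10 (adjusted p = 0.117), neither of them past the threshold.

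No gene was called among the 4 other IQ-motif proteins, the 8 calcineurin subunits and regulators and the 10 downstream transcription factors and coactivators. At an unadjusted limma p under 0.05, 3, 2 and 1 of them were lower and 0 higher, each gene being counted on its brightest probe. Among all tested genes 9.98% were lower and 8.95% higher at this threshold. The 1 of 10 transcription factors and coactivators is near that share, and the other groups are small. Other probes of the transcription factors did not all go the same way. Nfatc2, the 1 counted as lower, differed by -0.40 ± 0.17 on its brightest probe and by 0.21 ± 0.16 on its second. Mef2a differed by -0.03 ± 0.12 on its brightest probe and by -0.02 ± 0.10 on another. A further Mef2a probe was higher under the same unadjusted threshold (0.22 ± 0.08). Of the calcineurin group, Akap5, the scaffold that anchors calcineurin at synapses, differed by -0.31 ± 0.08 (adjusted p = 0.102) and Ppp3r1, the regulatory subunit, by -0.28 ± 0.07 (adjusted p = 0.118). The median of this group was -0.04, beside -0.41 for the other EF-hand sensors and buffers.

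**Figure D3:**
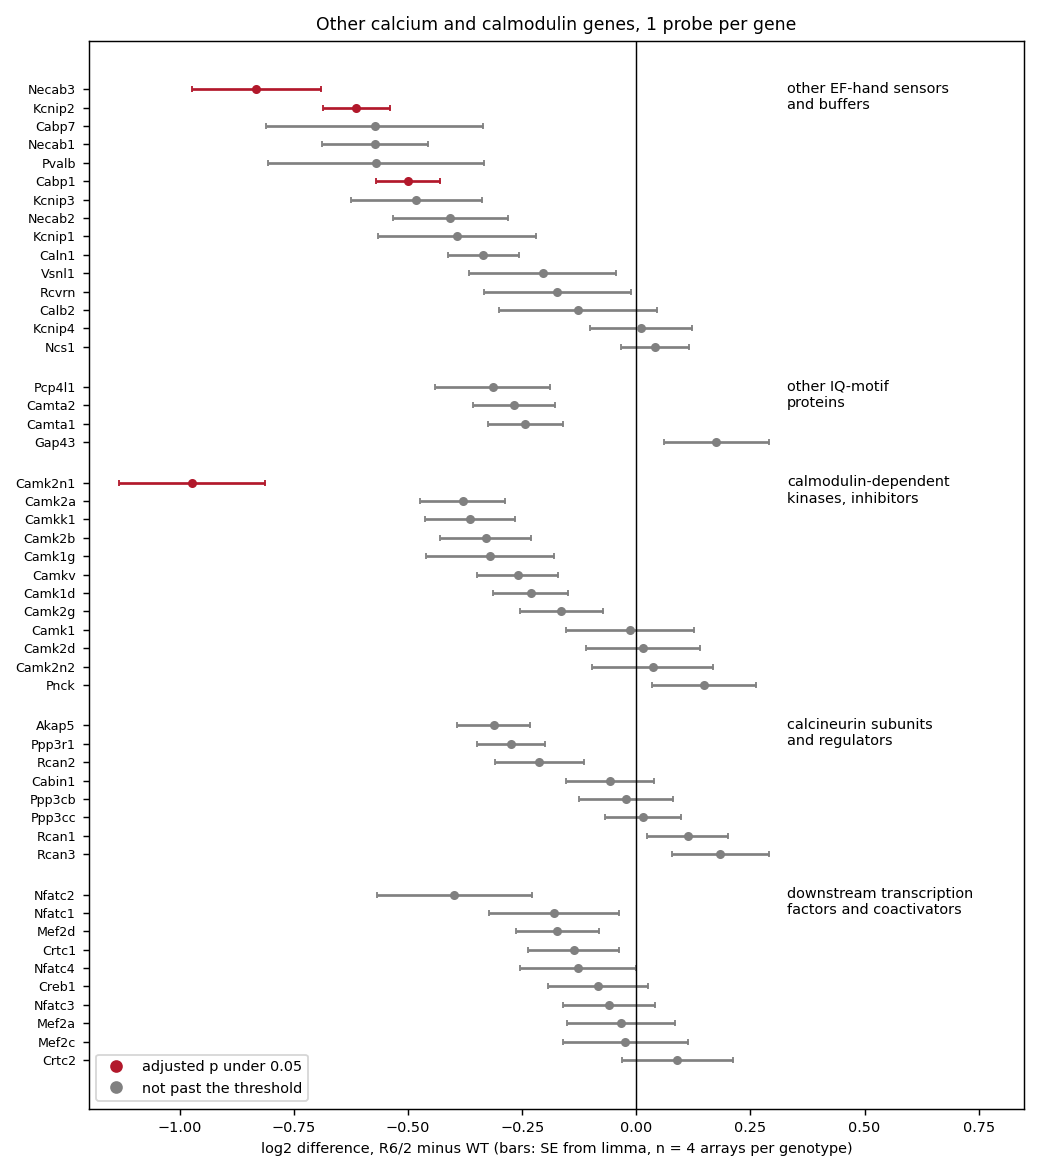
Difference between genotypes (R6/2 minus WT, log2 scale, horizontal axis) for 49 of the 52 tested genes of the further calcium and calmodulin list, in 5 groups by role, with bars of 1 SE from limma over 4 arrays per genotype. The 4 called genes (red) are Necab3, Kcnip2, Cabp1 and Camk2n1, all below 0.

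The genes with the profile most like that of Camkk2 probe 1 were found by the root mean square (RMS) difference between log2 profiles, each centred on its own mean over the 8 arrays. The 5 nearest were Gpr26 (RMS difference 0.05), Kalrn (0.09), AI835086 (0.09), Gpd1 (0.10) and Syt7 (0.10), against a median of 0.39 over the tested genes. Of the members' brightest probes, Camkk2 probe 2 was nearest (0.07), then Nrgn (0.11) and Hpca (0.14), and Calb1 was farthest (0.43).

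The tissue was checked against cell markers on the same arrays. All 10 striatal projection neuron markers were detected on all 8 arrays, and 6 of them (Ppp1r1b, Penk, Adora2a, Pde10a, Rgs9 and Scn4b) were called lower in R6/2. Among the markers that were not called, Drd1 (-0.70) and Drd2 (-0.72) had negative differences and Tac1 a positive one (0.21, adjusted p = 0.328). The summed scaled signal of this list was 372 to 506 in R6/2 and 726 to 832 in WT, so that the sum, though not Tac1, differed in the same direction as the called members. The 15 pan-neuronal markers summed to 428 to 473 in R6/2 and 475 to 518 in WT, with 0 called and a median difference of -0.14. Scaling the arrays on these genes left 1 member probe called, Camk4 probe 3, with 9 lower at an unadjusted limma p under 0.05. The share of all tested probes under that unadjusted threshold with this scaling is not given here. The 7 interneuron markers summed to 35.7 to 39.0 in R6/2 and 46.0 to 59.8 in WT, and the 7 cortical glutamatergic markers to 7.73 to 16.8 in R6/2 and 12.7 to 18.2 in WT, with 0 called in either list. No marker of astrocytes, oligodendrocytes, microglia, endothelial cells or choroid plexus was called, although the choroid plexus sum ranged from 45.6 to 184 in R6/2 and from 54.6 to 239 in WT. The part of these markers in the members' differences was not tested. In RNA from whole striatum, fewer cells of a type and less RNA per cell cannot be told apart.

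Across arrays, 61.5% to 67.7% of probes were well above background, the 75th percentile of signal lay between 434 and 486, and correlations between arrays were 0.983 to 0.993 within genotypes and 0.980 to 0.990 between them. No spot was saturated. The number of arrays, 4 per genotype, limits the precision of every value.

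**Figure D4:**
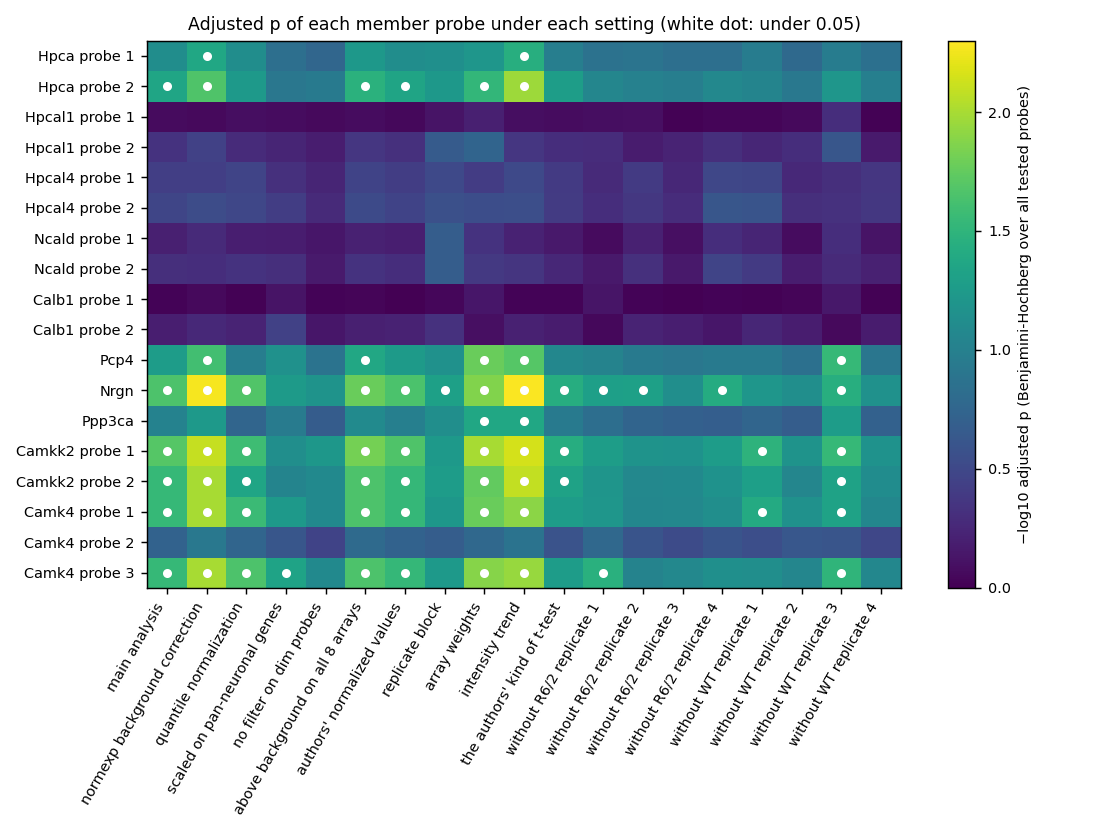
Adjusted p (colour, as minus log10) of each member probe under the chosen analysis and 18 alternatives (columns), all in limma except the authors' kind of unpaired test, with a white dot where it was under 0.05. Nrgn has a dot in 12 of the 18 alternatives, while Hpcal1, Hpcal4, Ncald, Calb1 and Camk4 probe 2 have none.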

How the data were processed

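Total RNA from striatum was labelled with Cy3 and hybridised to 1-colour Agilent arrays. The deposited scanner files hold intensity values made with Agilent Feature Extraction 10.7.3.1, per the file headers, detrended spatially and with surrogate values for spots near background, without scaling between arrays. The authors' deposited table holds log2 values whose normalization is not stated; by the values, each array had a constant subtracted that left 75.0% of its values below 0. Its p-values come from an unpaired t-test with Benjamini-Hochberg correction, per the file headers, and its fold values are unsigned ratios between R6/2 and WT.

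The values analysed here were log2 processed signal minus log2 of each array's 75th percentile. Non-uniform spots and population outliers, as the files mark them, were dropped, and repeated spots averaged. Differences came from limma 3.58.1 (lmFit, eBayes; R 4.3.3), tested on simulated data first. Probes were renamed through the GRCm38.p6 gene table (26762 by accession, 5056 by gene number, 2544 kept the scanner file's symbol, 21319 had none). Probe positions are on mm9, as the files give them; exon and intron annotation of that build was not used here. Promoter sequences are from RefSeq.

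Every member probe was named, with every called gene of the further list and the 6 next by p, and the 5 genes most like the member probe of smallest p. The members and lists were chosen with earlier results of these data known. Same-numbered samples of the 2 genotypes deviated together from their group means (r = 0.222, 0.183, 0.356 and 0.133 for replicates 1 to 4). Between unlike numbers r was -0.19 to 0.047. The labels' numbers were therefore taken to pair the samples, and the replicate number was fitted as a block. Since this number was also the slide row, pairing and row cannot be told apart. Other alternatives changed the background correction, scaling, filter, source of values, weights, variance prior, test and arrays. Some results of the further list are not reported here, though its counts include them.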

Additional observations from a re-analysis of the deposited data

How the results depend on the processing

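The replicate block left 1 member probe, 2 genes of the further list and 283 of all tested probes called, against 6, 4 and 529 without it. The paired exact test of the relatives of Hpca, added after seeing the data, gave the same differences (-0.38, -0.19 and -0.12; adjusted p = 0.375, 0.563 and 0.625). Member probes called numbered 1 with scaling on pan-neuronal genes, 0 with no filter on dim probes (limma, 10 at an unadjusted p under 0.05) and 3 by the authors' kind of t-test, but 7 with the filter set at all 8 arrays, 8 with normexp background correction, 8 with array weights and 9 with an intensity trend. Genes of the list called numbered 7 with normexp background correction, 1 with no filter, 9 with an intensity trend and 2 by the t-test. All probes called numbered 981 with normexp, 110 with no filter, 1125 with array weights, 1006 with an intensity trend and 264 by the t-test. Of these calls, 64.4% were lower with quantile normalization, 46.2% with scaling on pan-neuronal genes and 62.5% by the t-test, against 75.6%. Leaving out 1 array gave 0 to 6 member probes, 0 to 2 list genes and 100 to 505 probes called. It gave -0.45 to -0.31 for Hpca minus Hpcal1, -0.29 to -0.08 for Hpca minus Hpcal4 and -0.25 to 0.068 for Hpca minus Ncald, whose sign turned to 0.068 without R6/2 replicate 4.

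Signs turned for 2 probes that were not called. Calb1 probe 1 (A_55_P2181602) was 0.0117 with quantile normalization, 0.0623 with scaling on pan-neuronal genes, and -0.0843 to 0.0255 when 1 array was left out, above 0 without R6/2 replicate 2 (0.0246), R6/2 replicate 3 (0.0065) or WT replicate 2 (0.0255). Hpcal1 probe 1 (A_51_P487360) was 0.035 with scaling on pan-neuronal genes and -0.119 to 0.0084 when 1 array was left out, above 0 without WT replicate 4. The cause of these changes was not tested. Without the filter on dim probes, 55681 probes were tested, and the SE of Nrgn was 0.0896, against 0.0841 with the filter. Which of these lowered the count of calls was not tested. Slide and scan could not be fitted as a block, since all 8 arrays were on 1 slide and in 1 scan. No member was limited by signal near background.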
